A study of Mus musculus with 12 samples.

Results

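The genes described here encode enzymes of the tricarboxylic acid (TCA) cycle, 9 in all: Cs, Idh3a, Idh2, Ogdh, Suclg1, Suclg2, Sucla2, Fh1 and Mdh2. H3K27ac, the acetylated form of histone H3 found at active promoters and enhancers, was profiled in cardiomyocytes (CMs) by CUT&RUN, which cuts and sequences the DNA next to antibody-bound histones. Control mice carried floxed Nrip1 alleles without Cre (Nrip1 f/f Cre-), and the CM-selective knockouts, csNrip1-/- or KO below, carried the same alleles with Cre driven by the Nkx2.5 promoter (Nrip1 f/f Cre+), which is active from embryonic heart development. Nrip1 encodes RIP140. Male littermates aged 10 to 12 weeks were used without any named treatment, and 200000 cells, enriched for CMs by Langendorff perfusion and slow centrifugation, went into each experiment. There were 3 replicates with the H3K27ac antibody and 3 with IgG for each genotype. The authors kept regions called in at least 2 of the 3 replicates and deposited 1 list per genotype, so each value below is a single value per genotype, without an error between replicates and without a test.

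A gene was counted as covered by a region that overlapped its body extended by 5 kb on each side (GENCODE M21, GRCm38). By this rule, 30 of the 53754 control regions and 28 of the 45521 KO regions lay at the 9 genes, which belong to the 14443 of 21938 protein-coding genes with a region in at least 1 list. Regions covered 151 Mb of the genome in the control list and 154 Mb in the KO list, with median widths of 1846 and 2291 bp. The lists hold positions and no signal, so depth is unknown, and a difference in acetylation within a region that both lists hold cannot be seen. A region is called KO-only or control-only where it did not overlap the other list by a single base.

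The lists were checked against the labels. The last exon of Nrip1 (chromosome 16, 76287400 to 76295015) had 2904 bp covered in control and 0 bp in KO. All 10 cardiomyocyte marker genes, among them Myh6, Tnnt2 and Actc1, had their transcription start sites (TSSs) covered in both lists. Of the fibroblast markers, 1 of 7 had its TSS covered in control (Col3a1) and 0 of 7 in KO, and Col1a1, Col1a2, Dcn, Postn and Tcf21 had no covered base in either list. Of the macrophage markers, 0 of 6 had a covered TSS in either list, and only Cd68 had covered bases in the gene body, 0% in control and 15.6% in KO. Endothelial markers were covered at 3 of 6 TSSs (Kdr, Tek and Emcn) in both lists, with a median of 17.2% of the gene body covered in control and 18.8% in KO. Regions at endothelial genes were thus present in both lists, and the part of these cells in the regions described below was not tested.

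The TCA cycle runs in the mitochondrial matrix, where it oxidizes the acetyl group of acetyl-CoA and passes the electrons to NADH and FADH2 for the respiratory chain. The heart draws most of its ATP from this route, and CMs express its enzymes strongly. Estrogen-related receptors (ERRs) are nuclear receptors known to activate these genes, MEF2 factors bind at many muscle genes, and RIP140 is a corepressor that interacts with nuclear receptors.

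Sequences are shown for some of the places where a regulatory motif lay inside a region, and for some of those where the lists differed. All ERR and MEF2 matches in sequence that only KO covered are printed. Several in regions of both lists are not, among them a MEF2 match of Ogdh 1158 bp after its TSS. All are given 5′ to 3′ on the plus strand of GRCm38, without regard to the strand of the gene, and capitals mark the motif. The ERR motif was searched as TCAAGGTCA on both strands, so a match on the minus strand reads TGACCTTGA, and the MEF2 consensus was searched by its standard ambiguity letters. Idh3a held a pair of ERR matches in its first intron, inside the region over its TSS, in both lists. At Cs, an ERR match upstream and a MEF2 match downstream of the TSS lay inside the region over the TSS in both lists, and at Idh2 and Suclg2 ERR matches lay in regions that both lists held. At Sucla2, an ERR and a MEF2 match stood 4 bases apart in sequence that only the KO region covered, and at Mdh2 a MEF2 match lay in the stretch by which the KO region was longer.
Idh3a, chr9:54586706-54586764: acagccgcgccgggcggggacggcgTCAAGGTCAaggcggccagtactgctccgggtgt
Idh3a, chr9:54587236-54587294: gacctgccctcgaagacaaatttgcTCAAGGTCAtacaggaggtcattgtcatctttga
Cs, ERR, chr10:128335434-128335492: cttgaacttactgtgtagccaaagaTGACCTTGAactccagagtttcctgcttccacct
Cs, MEF2, chr10:128339182-128339241: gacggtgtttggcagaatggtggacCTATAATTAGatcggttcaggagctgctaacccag
Idh2, chr7:80118915-80118973: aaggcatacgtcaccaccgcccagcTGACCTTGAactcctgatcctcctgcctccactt
Suclg2, chr6:95704772-95704830: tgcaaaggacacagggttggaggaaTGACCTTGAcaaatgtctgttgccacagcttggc
Sucla2, ERR then MEF2, chr14:73554406-73554478: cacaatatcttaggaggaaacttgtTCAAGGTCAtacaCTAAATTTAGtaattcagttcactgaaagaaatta
Mdh2, MEF2, chr5:135779799-135779858: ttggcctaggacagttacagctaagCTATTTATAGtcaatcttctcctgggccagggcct

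The middle 100 bases are shown for both KO-only regions, which lay in Suclg1 and Mdh2, and for the widest control-only region, which lay in Suclg2. None of these stretches held an ERR or MEF2 match, and neither did the rest of these regions, so no base is in capitals.
Suclg1, KO-only, chr6:73254437-73254536: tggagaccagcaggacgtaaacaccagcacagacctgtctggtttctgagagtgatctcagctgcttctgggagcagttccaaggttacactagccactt
Mdh2, KO-only, chr5:135782569-135782668: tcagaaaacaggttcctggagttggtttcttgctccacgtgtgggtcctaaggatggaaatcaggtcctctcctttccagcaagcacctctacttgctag
Suclg2, control-only, chr6:95684391-95684490: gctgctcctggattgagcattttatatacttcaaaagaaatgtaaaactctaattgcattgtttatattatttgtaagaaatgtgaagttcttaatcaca

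Every member had its TSS, the annotated 5′ end of the gene, covered in both lists, 9 of 9 against 62.4% of the 14443 genes. Over the 9 windows, 106968 bp were covered in control and 102719 bp in KO, and 86097 bp were covered in both lists, which is 80.5% of the control length and 83.8% of the KO length. Over the whole genome these shares were 74.1% and 72.7%. When overlapping regions of both lists were joined into loci, 22 of 29 loci at the members were held by both lists, 5 by control alone and 2 by KO alone. The positions of regions at the cycle genes were therefore largely common to both lists. The lists differed in the extent of regions and in 7 regions inside gene bodies. The same count of loci over all genes is not given here, and acetylation within shared regions cannot be compared.

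**Figure D1:**
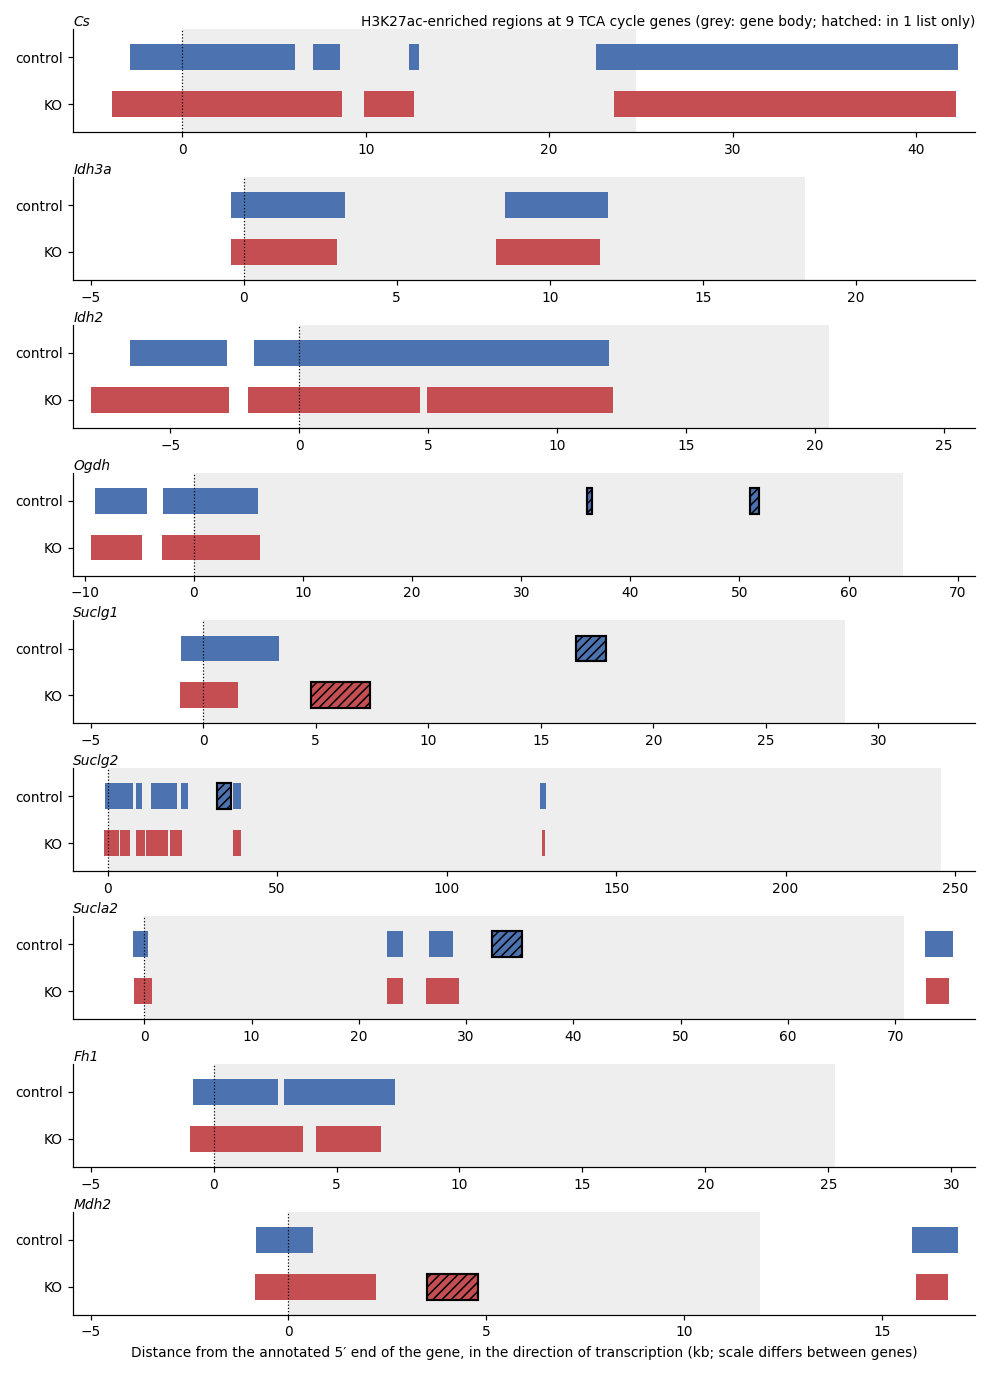
Each panel shows 1 gene, with the control regions (blue, upper row) and KO regions (red, lower row) along the distance from the annotated 5′ end in kb, the gene body in grey and regions present in 1 list only hatched with a black outline. All 9 start sites lie under a bar in both rows, and the 7 hatched bars (5 control, 2 KO) all lie inside gene bodies.

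The length covered per window differed little for most members. It was greater in KO for 3 genes (Cs, Idh2 and Mdh2) and smaller for 6, with a median log2 ratio of KO to control of -0.13 and a range from -0.32 (Sucla2) to 1.00 (Mdh2). The direction depended on the window: with an extension of 20 kb, 5 members were greater in KO and 4 smaller, with a median of 0.078. For the 12989 protein-coding genes covered in both lists the median was 0.08, with 5th and 95th percentiles of -0.80 and 1.12, and 58.1% of these genes had more length covered in KO. Past 1.5-fold, 1 of 9 members was greater in KO (Mdh2), beside 16.3% of these genes and 12.8% of the 9007 genes with the TSS covered in both lists. No member was over 1.5-fold smaller in KO, 0 of 9, beside 8.6% and 6.85%. In these windows all but Mdh2 therefore lay within 1.5-fold in either direction, and Mdh2 itself lay inside these percentiles of all genes. Within 5 kb of the TSS, Suclg1 was past 1.5-fold smaller in KO, with a log2 ratio of -0.66. The share of all genes is not given for that window.

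**Figure D2:**
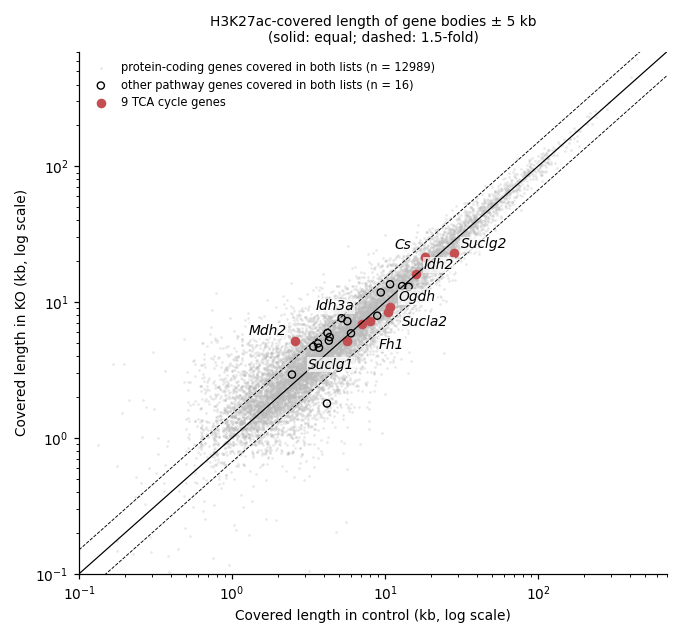
Covered length of the gene body and 5 kb on each side is plotted for control (x axis) and KO (y axis), in kb on log scales, for 12989 protein-coding genes (grey), 16 other pathway genes (open circles) and the 9 members (red, named). Mdh2, at 2576 bp in control and 5145 bp in KO, is the only red point beyond the dashed 1.5-fold line, and 29 grey genes lie outside the axes.

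Cs encodes citrate synthase, which joins acetyl-CoA to oxaloacetate and opens the cycle (chromosome 10, 128337734 to 128362479, plus strand). Its window had 18260 bp covered in control and 21465 bp in KO, a log2 ratio of 0.23, and these were 52.6% and 61.8% of the window, at the 96.2 and 97.2 percentiles of genes with a region. The region over the TSS was 9029 bp wide in control and 12513 bp in KO. In KO it began 960 bp farther upstream and ended 2524 bp farther downstream, and took in a control region of 1461 bp that a gap of 964 bp kept apart in control. A second locus in the gene body, from 9913 to 12918 bp after the TSS, was covered over 569 bp in control and 2732 bp in KO, although the regions of the lists overlapped there by only 295 bp. The widest region at any member, 19739 bp in control and 18669 bp in KO, began in the 3′ part of Cs and held the TSSs of Coq10a and Ankrd52, so that it cannot be given to Cs alone.

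Idh3a and Idh2 encode isocitrate dehydrogenases, which convert isocitrate to 2-oxoglutarate, and each had nearly the same length covered in both genotypes. Idh3a encodes the catalytic subunit of the NAD-dependent enzyme (chromosome 9, 54586334 to 54604661, plus strand). It held 2 regions in each list. That over the TSS was 3710 bp wide in control and 3481 bp in KO, with the upstream edge 30 bp farther out in KO and the downstream edge at 3310 bp in control and 3051 bp in KO. The region in the gene body measured 3356 and 3406 bp, and the log2 ratio for the whole window was -0.04. The ERR matches of Idh3a, 397 and 927 bp after the TSS, lay nearer to an annotated 5′ end than those in regions of the other members.

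Idh2 encodes the NADP-dependent mitochondrial enzyme (chromosome 7, 80094846 to 80115392, minus strand). Its covered length was 16007 bp in control and 16150 bp in KO, a log2 ratio of 0.01, and 52.4% and 52.9% of its window were covered. The control list held a single region of 13804 bp over the TSS, at the 97.1 percentile of such widths, whereas the KO list held regions of 6675 and 7203 bp over the same stretch, parted by a gap of 278 bp in the gene body. The narrower TSS region in KO was thus a break in a domain of nearly the same total length (13804 bp in control, 13878 bp in KO). A second region upstream of the gene, which held the ERR match at -3556 bp from the TSS, was 3789 bp wide in control and 5372 bp in KO, a log2 ratio of 0.50.

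Ogdh encodes the E1 subunit of the 2-oxoglutarate dehydrogenase complex, which forms succinyl-CoA (chromosome 11, 6291633 to 6356642, plus strand). The region over its TSS measured 8735 bp in control and 8984 bp in KO, and its edges moved outward by 87 bp upstream and 162 bp downstream. A region upstream of the gene measured 4737 and 4676 bp. These were alike between genotypes. The difference in its window, 10748 bp in control and 9203 bp in KO (log2 ratio -0.22), came mostly from 2 narrow control-only regions in introns, at 6327625 to 6328126 (502 bp) and 6342627 to 6343424 (798 bp). They lay 29917 and 22095 bp from the nearest KO region. The smaller width of the first, 502 bp, made it the narrowest region at any member.

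Succinyl-CoA synthetase, which converts succinyl-CoA to succinate while forming GTP or ATP, consists of an alpha subunit (Suclg1) and either a GTP-forming beta subunit (Suclg2) or an ATP-forming beta subunit (Sucla2). Its 3 genes held 4 of the 7 genotype-only regions, and 14 of the 30 control and 13 of the 28 KO regions in all. Each of the 3 had less covered length in KO, but the sign turned for Suclg1 with windows extended by 20 kb (0.078), and for Suclg2 (0.014) and Sucla2 (0.33) within 5 kb of the TSS. Suclg1 (chromosome 6, 73248382 to 73276911, plus strand) had 5684 bp covered in control and 5161 bp in KO, a log2 ratio of -0.14. The region over its TSS was 4371 bp wide in control and 2572 bp in KO, with the upstream edges 48 bp apart and the downstream edge 3390 bp after the TSS in control and 1543 bp after it in KO. A KO-only region of 2589 bp lay at 73253192 to 73255780, 4810 to 7398 bp after the TSS, and covered 90 exonic bases. A control-only region of 1313 bp lay farther on, in an intron, at 73264966 to 73266278. Its middle 100 bases lay wholly in bases that the genome sequence marks as repeats. The gene thus held a genotype-only region of each kind.

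Suclg2 (chromosome 6, 95473009 to 95718800, minus strand) is the longest member, at 245792 bp, and held 7 regions in each list. Its window had 28127 bp covered in control and 22988 bp in KO, a log2 ratio of -0.29. By tag counts, a measure of signal that covered length does not give, the authors found regions with increased H3K27ac in KO. Each was assigned to its nearest gene. They name Suclg2 among the genes so assigned that were also protected from RNA downregulation after aortic constriction with infarction. The region assigned to Suclg2 is not stated and need not lie in this window. The control-only region at 95682273 to 95686607 was intronic and, at 4335 bp, the widest genotype-only region of the 7. It lay 475 bp from the nearest KO region. The region over the TSS spanned 8329 bp in control, and in KO the same stretch held regions of 4361 and 2880 bp with 303 bp between them. Among its other intronic loci, that from 11408 to 23615 bp after the TSS, which held an ERR match, had 9492 bp covered in control and 9923 bp in KO, and a distal locus from 127464 to 129274 bp had 1811 and 901 bp.

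Sucla2 (chromosome 14, 73525319 to 73596142, plus strand) had 10544 bp covered in control and 8467 bp in KO, a log2 ratio of -0.32. A control-only region of 2866 bp at 73557704 to 73560569, which overlapped 129 coding bases, was wider than this whole difference. The region over the annotated 5′ end measured 1364 bp in control and 1716 bp in KO. That end belongs to a single coding transcript, and the other annotated coding starts, the first of them at 73552665, lie 27346 bp or more downstream, with the RefSeq start at 73552786. Over this second start the region was 2311 bp wide in control and 3109 bp in KO, a log2 ratio of 0.43, and in KO it reached 258 bp farther upstream and 540 bp farther downstream. The ERR and MEF2 matches that stand 4 bases apart, printed above, lay in the downstream 540 bp. Counted from the second start, the window had 9180 bp covered in control and 6751 bp in KO.

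Fh1 encodes fumarase, which hydrates fumarate to malate (chromosome 1, 175600374 to 175625635, minus strand). Both lists held 2 regions there, with the break between them at a different place. The region over the TSS was 3420 bp wide in control and 4595 bp in KO, and ended 1045 bp farther downstream in KO, while the next region, which held the TSS of Kmo, was 4536 bp wide in control and 2658 bp in KO. Together they covered 7956 bp in control and 7253 bp in KO, a log2 ratio of -0.13.

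Mdh2 encodes mitochondrial malate dehydrogenase, which regenerates oxaloacetate (chromosome 5, 135778480 to 135790398, plus strand). It was the member with the largest ratio, 2576 bp covered in control and 5145 bp in KO, a log2 ratio of 1.00. The region over the TSS was 1425 bp wide in control and 3051 bp in KO. Its upstream edges were 20 bp apart, and the downstream edge lay 610 bp after the TSS in control and 2216 bp after it in KO. A KO-only region of 1290 bp followed in an intron, at 135781974 to 135783263. A region beyond the 3′ end of the gene was narrower in KO, at 804 bp against 1156 bp in control. The TSS region also held the TSS of Styxl1, so the difference at the start site cannot be given to Mdh2 alone. When the gene body alone was measured the log2 ratio was 2.52, and within 5 kb of the TSS it was 1.61. The first rests on only 611 bp of gene body covered in control. Percentiles over all genes are not given for these 2 windows.

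Across the members, and with overlap counted from 1 bp, the KO-only and control-only regions made up a smaller share of regions than in the lists as a whole. The 5 control-only regions were 16.7% of the 30 at the members, beside 29.5% of the control list, and the 2 KO-only regions were 7.14% of 28, beside 21.5% of the KO list. In each list 9 of the members' regions held a TSS covered in both lists, and so were shared. The members' regions were also wider, with medians of 2716.5 bp in control and 3080 bp in KO, beside 1846 and 2291 bp. Widths were not matched. At least 1 KO-only region lay at 2 of 9 members, Suclg1 and Mdh2, beside 35.2% of genes with a region and 29.1% of genes with the TSS covered in both lists. At least 1 control-only region lay at 4 of 9 members, Ogdh, Suclg1, Suclg2 and Sucla2, beside 39.2% and 35.4%. All of these regions lay wholly inside gene bodies, none held a TSS of any annotated gene, and 4 of the 5 control-only and 1 of the 2 KO-only regions touched no exon. The name of each region gives the number of calls merged into it, and 6 of the 7 had the smallest number, 2, as did 94.3% of all control-only and 87.8% of all KO-only regions, beside 68.9% and 61% of the whole lists. A region with 2 merged calls was called in 2 of the 3 replicates, the smallest number that the authors kept, and the lists do not tell in which.

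At the start sites, the genotypes differed more on the downstream than on the upstream side. The median absolute shift of the upstream edge was 87 bp for the members and that of the downstream edge 1606 bp, beside 223 and 370 bp for the 9007 genes with the TSS covered in both lists. The upstream edge lay farther out in KO for 8 of 9 members, with Sucla2 the exception at its annotated 5′ end, beside 56.6% of these genes, but only 4 of the 8 moved by at least 100 bp. Upstream shifts under 100 bp in either direction were found at 5 of 9 members, beside 2318 of the 9007 genes. The downstream edge lay farther out in KO for 5 of 9 members (Cs, Ogdh, Sucla2, Fh1 and Mdh2), beside 59.1%. For Suclg1 and Idh3a, and for Idh2 and Suclg2 where the domain was broken, it lay farther in. A control TSS region overlapped by 2 or more KO regions was found at 2 of 9 members, Idh2 and Suclg2, beside 5.52% of genes, and the converse, a KO TSS region overlapped by 2 or more control regions, at 2 of 9, Cs and Fh1, beside 10.8%.

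**Figure D3:**
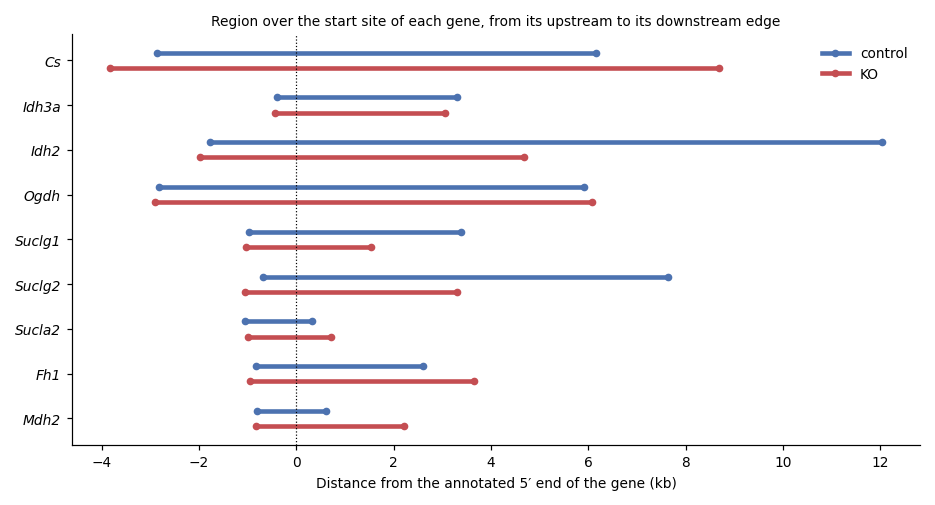
For each gene, a line joins the upstream and downstream edges of the region over the annotated 5′ end, in kb from that end, for control (blue) and KO (red). Upstream edges differ by 20 to 960 bp, whereas downstream edges differ by 162 to 7337 bp. The largest downstream difference, at Idh2, lies where a gap of 278 bp breaks the region in KO.

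In both genotypes the regions over most members' start sites were wide and lay mostly downstream of the TSS. They reached farther downstream than upstream at 7 of 9 members in control and 8 of 9 in KO, beside 68.3% and 70.2% of the 9007 genes. The exceptions were Sucla2, at its annotated 5′ end, in both lists and Mdh2 in control. At the second start of Sucla2 the region reached 837 bp upstream and 1473 bp downstream in control, and 1095 and 2013 bp in KO. The median width of the members' TSS regions was 4371 bp in control and 4361 bp in KO, beside 2647 and 2901 bp for the 9007 genes, and ranged from 1364 bp (Sucla2) to 13804 bp (Idh2) in control. The median reach downstream of the TSS was 3390 bp in control and 3310 bp in KO, beside 1479 and 1616 bp, whereas the median reach upstream was 980 and 1028 bp, beside 969 and 1030 bp. At 3 kb downstream of the TSS, 77.8% of members were covered in control and 66.7% in KO, and 27.7% and 30.1% of the 9007 genes. Mdh2 and the annotated 5′ end of Sucla2 had the narrowest regions in control. Both were wider in KO.

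**Figure D4:**
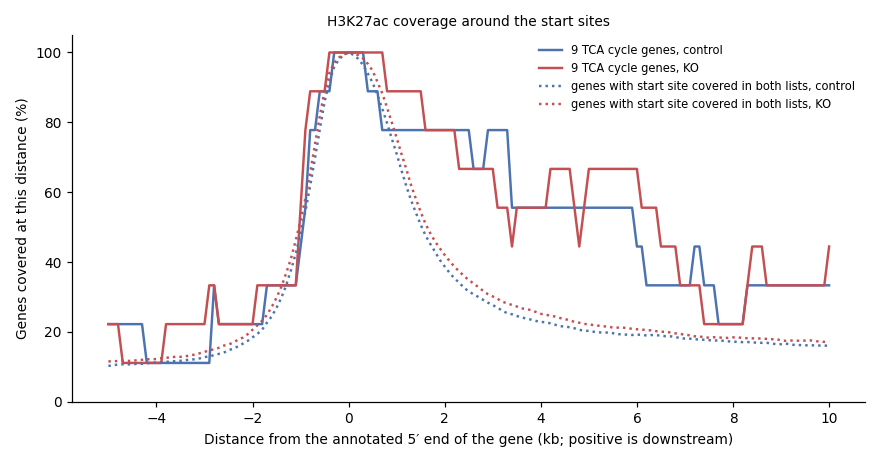
The share of genes covered at each distance from the annotated 5′ end, from 5 kb upstream to 10 kb downstream, is drawn for the 9 members (solid lines) and for the 9007 genes with the TSS covered in both lists (dotted lines), in control (blue) and KO (red). At 5 kb downstream the solid lines are at 55.6% (control) and 66.7% (KO), and the dotted lines at 20.3% and 22.2%.

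The other genes of the pathway were described by the same measures. Of the 17 described, 16 were covered in both lists. Of these, 12 had more covered length in KO and 4 less, beside 58.1% of all genes covered in both lists with more. At an extension of 5 kb their median log2 ratio was 0.32, beside -0.13 for the members and 0.08 for all genes. The members' median turned to 0.078 at an extension of 20 kb. The 8 further genes of cycle enzymes had 5 greater and 3 smaller (median 0.28), the 5 genes of pyruvate entry 4 and 1 (median 0.33), and the 3 cytosolic counterparts covered in both lists 3 and 0 (median 0.33). No gene of these lists was over 1.5-fold greater in KO, beside 16.3% of all genes covered in both lists. Only 1, Dld, was over 1.5-fold smaller, beside 8.6%. Dld encodes the shared E3 subunit of the pyruvate and 2-oxoglutarate dehydrogenase complexes. It had 4177 bp covered in control and 1794 bp in KO, a log2 ratio of -1.22. A control-only region of 2031 bp at chromosome 12, 31346106 to 31348136, made up most of that difference. Aco1, the cytosolic aconitase, was covered in control alone, by a region of 2231 bp over its TSS (chromosome 4, 40142399 to 40144629).

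Among these 17 genes, 3 held a KO-only region each, beside 35.2% of genes with a region, and 5 held control-only regions, 6 in all, beside 39.2%. KO-only regions lay at Sdhc, a membrane anchor of succinate dehydrogenase (1237 bp), Pdhb, the E1 beta subunit of pyruvate dehydrogenase (1985 bp), and Acly, the cytosolic ATP citrate lyase (701 bp). Beside those of Dld and Aco1, control-only regions lay at Dlat, the E2 subunit of pyruvate dehydrogenase (912 bp), Pdhx, its E3-binding protein (1039 and 2732 bp), and Pcx, pyruvate carboxylase (1264 bp). The lists of pathway genes were chosen by hand, and no test compared them with the members.

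**Figure D5:**
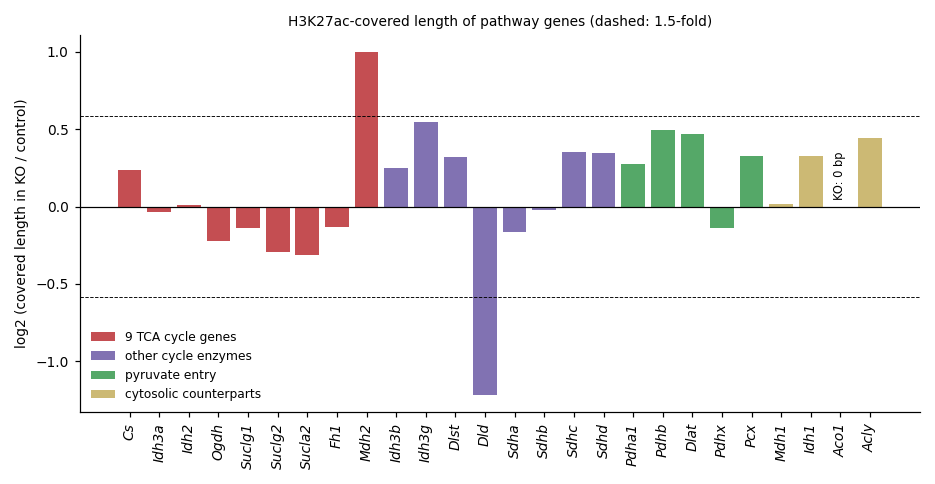
Bars give the log2 ratio of covered length in KO to control for the 9 members (red) and 17 other pathway genes grouped by role, with dashed lines at 1.5-fold and Aco1, covered by 0 bp in KO, marked in words. Among the red bars only Mdh2 (1.00) passes a dashed line, and among the others only Dld (-1.22).

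ERR and MEF2 matches are described here as letters in the genome and not as bound sites. The 9 windows held 19 ERR matches, of which 8 were in a region of both lists, 1 in KO sequence alone (Sucla2), 0 in control sequence alone and 10 in no region. They held 18 MEF2 matches, of which 6 were in both lists, 2 in KO sequence alone (Sucla2 and Mdh2), 0 in control sequence alone and 10 in no region. The matches in KO sequence alone lay in regions that were wider in KO. None of the 7 genotype-only regions held either motif, but the share over all genotype-only regions is not given here. The shorter ERR core AAGGTCA was found in the Mdh2 KO-only region and in the Suclg1 control-only region.

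Counted over whole regions, which can reach beyond the windows, the members' regions held 12 ERR matches in control and 13 in KO, or 9.59 and 10.6 per 100 kb, beside 3.27 and 3.36 per 100 kb over all regions. Of these matches 5 lay in the wide region shared with Coq10a and Ankrd52. Repeats bear on this count: 7 of the 12 control matches and 7 of the 13 KO matches lay wholly in bases that the genome file marks as repeats, beside 40% and 39.2% of the ERR matches in all regions. Those at Idh3a, the pair at Sucla2 and that at Suclg2 printed above lay outside repeats, whereas that printed for Cs and that for Idh2 lay inside. MEF2 matches numbered 6 in control and 8 in KO, or 4.80 and 6.52 per 100 kb, beside 3.79 and 3.61, with 1 in repeats in each list.

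In the promoters themselves, from 250 bases before to 50 after the RefSeq start, the ERR motif was found in 0 of 8 genes, beside 0.423% of all promoters and 0.337% of those of protein-coding genes. RefSeq promoter sequences (GRCm38) were at hand for 8 of the 9 genes, all but Idh3a. The SP motif GGGCGG was found on either strand in 7 of 8, with Suclg1 the exception, and in 10 of the 13 promoter windows of these genes, since Ogdh had several starts, beside 35.7% of 32851 promoters and 47.8% of the 20150 promoters of protein-coding genes. It numbered 7 matches at Suclg2, the most of any member. The ERR core AAGGTCA, part of the full motif, was found at 1 alternative start of Ogdh (held by 4.72% of all promoters and 3.97% of coding ones) and the NRF1 core GCGCATGC at other alternative starts of Ogdh (2.71% and 3.65%). The ETS motif CCGGAAG and the MEF2 consensus were found in 0 of 8, beside 8.86% and 0.557% of all promoters and 11.9% and 0.481% of coding ones. Every promoter window of the 8 genes was covered over its whole length in both lists. The share of all promoters covered in this way is not given here. Such coverage need not set the members apart. Among all genes with the TSS covered in both lists, 98.1% in control and 98.6% in KO were covered at -200 bp from the annotated 5′ end.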

How the data were processed

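H3K27ac CUT&RUN libraries of CMs from control and csNrip1-/- mice were grouped by the genotype and antibody in their labels. Alignment was done by the authors with Bowtie2 2.4.2 (GRCm38) and removal of duplicates with SAMtools. With HOMER 4.11.1 they called enrichment over IgG in every replicate and merged the calls, requiring 2 or more of 3 replicates. The deposited lists give the start and end of each region in bp and a score, which the authors set to 1 in every row and which was not used. Starts were read as 0-based. Tag counts were not analysed here.

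Only chromosomes 1 to 19, X and Y were used. Overlap needed 1 bp, covered length counted each base 1 time, and KO and control were compared side by side, since 1 list per genotype allows no test and depth is unknown. The named genes are all members, other pathway genes past 1.5-fold or with a genotype-only region, and genes whose TSS lies in a member's region. Results for some genes under this rule are not reported here. The members and lists were chosen with earlier results of these data known. Alternatives changed the overlap, minimum width, window and fold. Chosen after seeing the data were the limit of 100 bp on edge shifts and the second start of Sucla2. Overlap, covered length and motif search were checked on simulated regions. Python 3.11.15, numpy 2.4.6, pysam 0.24.0 and matplotlib 3.10.9 were used.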

Additional observations from a re-analysis of the deposited data

How the results depend on the processing

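No paired analysis was possible because the replicates of each genotype were merged into 1 list before deposit, and for the same reason leaving out a replicate was not run. The counts of genotype-only regions depended on the overlap required. With a reciprocal overlap of 50%, 11 control-only and 9 KO-only regions were counted, and where 50% of a region had to be covered, 4 were KO-only. The shares of the whole lists under these rules are not given here. The members' shares were thus set beside those of the lists at an overlap of 1 bp only. With windows extended by 20 kb, 4 KO-only regions were counted and the median log2 ratio of covered length was 0.078. Within 5 kb of the TSS alone that median was -0.00016. At a fold of 2, 0 members were greater in KO, since Mdh2 lay just below it. Under the other 22 settings these summaries stayed within 1.5 times the count, or within 0.1 of the median, reported above. The counts past 1.5-fold were not repeated within 5 kb of the TSS, where Suclg1 had a log2 ratio of -0.66. Over 4 settings of window and width, the log2 ratio kept its sign for Cs, Idh3a, Fh1 and Mdh2 (0.75 to 2.52 for Mdh2), took the other sign under 2 of 4 for Idh2, and under 1 of 4 for Ogdh, Suclg1, Suclg2 and Sucla2. Counted from its second start, as chosen after seeing the data, Sucla2 had a log2 ratio of -0.44, and 9 of 9 upstream edges then lay farther out in KO. Covered length cannot show a difference in signal within a region, and its precision between mice is unknown.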
